A study of Homo sapiens with 8 samples.

Results

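Distal regions that carried a HIF-1β site in PC3 cells alone numbered 238, out of 3837 merged regions with a site in any of 4 cancer cell lines. The regions were chosen by their peaks: a line had a site where a peak of either replicate met a peak of the other by 1 bp or more, and a member had a site of PC3 and of no other line and lay over 2 kb from every protein-coding transcription start. HIF-1β ChIP-seq, in which DNA bound to this protein is immunoprecipitated and sequenced, was performed with 2 replicates each in PC3 (prostate cancer), T47D (breast cancer), A549 (lung cancer) and HCT-116 (colorectal cancer), with the same rabbit polyclonal antibody. According to the labels all 8 libraries were made from cells held at 0.5% oxygen for 16 h, so hypoxia was common to every group, and normoxic cells were not analysed here. The labels do not say whether the replicates came from separate cultures. The peak lists hold positions and scores on GRCh37 (hg19) with no gene expression, so the identity of the lines could not be checked against markers.

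HIF-1β, encoded by ARNT, is the constitutive partner of HIF-1α and HIF-2α, whose subunits are stabilised when oxygen is low. The heterodimers bind the core sequence RCGTG (R is A or G), at promoters and at distant enhancers, which can act on genes over long distances. HIF-1β also pairs with the aryl hydrocarbon receptor (AHR), whose response element contains GCGTG. In enhancers of many epithelial cancers AP-1, a dimer of FOS and JUN family proteins, helps to keep chromatin open. Its motif was counted here as TGANTCA, with any base at N, and the forms with different bases at N were not separated. PC3 is an androgen receptor-negative line derived from a bone metastasis.

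To show what the regions contain, short stretches of GRCh37 around the RCGTG nearest to the middle are printed for 4 of the members with the highest scores, for 2 nearest to genes of lists, and for 3 that also held an AP-1 motif. The last 3 were picked after their values were seen. All are on the plus strand, 5′ to 3′, with capitals marking RCGTG or its reverse complement CACGY and TGANTCA. The stretches lie at chr7:55766774-55766874 (in an intron of the pseudogene FKBP9P1, nearest coding start VOPP1), chr20:36170713-36170813 (intergenic, BLCAP), chr11:128206119-128206219 (intergenic, ETS1), chr1:161706227-161706327 (intergenic, DUSP12), chr15:74226779-74226879 (intron of LOXL1), chr20:22370974-22371074 (intron of a non-coding gene, FOXA2), chr2:237784535-237784635 (intergenic, COPS8), chr2:29854975-29855075 (intron of ALK) and chr2:40662126-40662226 (intron of SLC8A1).
VOPP1: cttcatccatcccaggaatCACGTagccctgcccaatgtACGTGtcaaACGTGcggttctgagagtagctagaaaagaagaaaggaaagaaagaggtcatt
BLCAP: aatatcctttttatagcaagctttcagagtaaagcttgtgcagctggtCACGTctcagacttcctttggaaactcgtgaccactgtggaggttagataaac
ETS1: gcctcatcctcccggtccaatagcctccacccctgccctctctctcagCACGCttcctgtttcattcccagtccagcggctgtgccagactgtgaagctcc
DUSP12: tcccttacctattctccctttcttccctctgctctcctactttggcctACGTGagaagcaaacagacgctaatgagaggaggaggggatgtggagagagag
LOXL1: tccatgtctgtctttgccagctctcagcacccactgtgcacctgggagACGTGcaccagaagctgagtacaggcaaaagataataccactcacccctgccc
FOXA2: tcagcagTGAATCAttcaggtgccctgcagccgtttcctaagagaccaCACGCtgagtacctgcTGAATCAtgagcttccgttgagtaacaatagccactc
COPS8: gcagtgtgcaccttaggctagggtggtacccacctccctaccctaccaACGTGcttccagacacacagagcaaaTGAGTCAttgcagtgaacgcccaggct
ALK: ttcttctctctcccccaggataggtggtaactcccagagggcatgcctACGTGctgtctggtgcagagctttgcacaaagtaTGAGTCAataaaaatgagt
SLC8A1: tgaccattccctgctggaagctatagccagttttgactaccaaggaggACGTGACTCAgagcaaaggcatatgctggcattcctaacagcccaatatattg
In the stretch nearest to SLC8A1 the ACGTG and the AP-1 motif share bases, whereas in those nearest to COPS8 and ALK they are separate. The stretch nearest to VOPP1 holds 3 copies of RCGTG, and that nearest to FOXA2 holds TGAATCA, a form of TGANTCA, on both sides of a GCGTG.

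The 238 members were part of 970 PC3 sites and of 296 regions with a site of PC3 alone, of which the other 58 lay within 2 kb of a protein-coding start. T47D, A549 and HCT-116 had 580, 386 and 280 distal regions of their own by the same rule. The PC3 lists were unequal, with 1041 peaks on the main chromosomes in replicate 1 and 2890 in replicate 2, against 1270 to 3788 in the libraries of the other lines. Each list begins at a score close to 50, and no file explains the score, so scores were compared only within a library. Because the number of reads is unknown, the lack of a site in another line means that no peak of both its replicates was listed there. When PC3 replicate 1 was left out and every peak of replicate 2 counted as a site, the number of regions rose to 1198, and without PC3 replicate 2 it was 279.

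Most of the members were modest peaks, with a few among the highest of the PC3 lists. In replicate 1 their scores ran from 50.15 to 1183.1 with a median of 81.1, and 151 were under 100. In replicate 2 they ran from 52.44 to 3148.03 with a median of 173. Placed within each list, the median member stood at the 43.2nd percentile of replicate 1 and the 78.2nd percentile of replicate 2, while the other 732 PC3 sites had medians of 57.1 and 83.9. Spearman's rho between the scores of both replicates was 0.62 over the members and 0.81 over the other sites, as a description over regions of the same pair of libraries. The peaks of both replicates shared at least 465 bp at every member. The members were a median of 1332 bp wide (724 to 9457 bp), and the widest lay nearest to CCNY on chromosome 10.

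**Figure D1:**
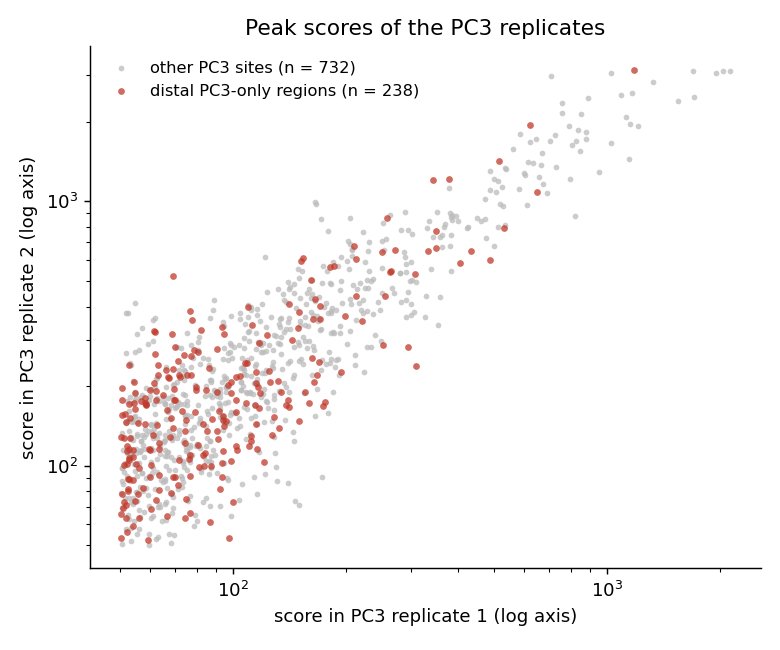
Score of each PC3 site in replicate 1 (x axis) and replicate 2 (y axis), both on log axes, with each point a site. The 238 distal PC3-only regions (red) lie among the 732 other sites (grey), crowded at the low end, and 1 of them, with scores of 1183.1 and 3148.03, lies with the highest sites of the line.

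The member with the highest scores was chr7:55765926-55767726, in an intron of the pseudogene FKBP9P1 and 125731 bp upstream of VOPP1. Its score was 1183.1 in replicate 1 and 3148.03 in replicate 2, and no library of another line had a peak there. The replicate 2 score was the highest of any peak in that list. However, PC3 sites with replicate 1 scores of 1694.59, 2036.69 and 2132.24 shared the same, slightly lower score in replicate 2. That shared score was also the highest in several libraries of the other lines, and whether scores were capped was not tested. The rank in replicate 2 therefore does not place this member above those sites. A pseudogene has sequence close to that of its parent gene, and how reads that map to both were placed is not given in the sources used here. It was followed by chr20:36169870-36171456, 13537 bp upstream of BLCAP, with scores of 621.94 and 1940.22. After it came chr1:161705481-161706971, with scores of 648.68 and 1083.95, which lay 12605 bp upstream of the phosphatase gene DUSP12 and also overlapped a peak of A549 replicate 3. The fourth lay 11812 bp downstream of the start of KCNS1, a potassium channel subunit, and scored 515.78 and 1423.12. These regions scored high in both libraries, and all hold an ACGTG within 100 bp of their middle.

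Of the 12 members with the highest mean percentile, 8 were intergenic, 11 had RCGTG in the central 200 bp and none had an AP-1 motif there. A region at chr11:128203889-128207193 lay 168096 bp downstream of the start of ETS1, a transcription factor of the ETS family, with scores of 377.68 and 1211.06 and a peak of HCT-116 replicate 2. An exon of TUBGCP2, which encodes a component of the γ-tubulin complex, held chr10:135106459-135107962 (scores 529.61 and 791.03). The remaining 6 had as their nearest coding starts those of BTBD3, TEX46, SNX10 (a sorting nexin), DEPP1, DCTD (dCMP deaminase) and ASB14, at between 2531 and 426296 bp. At the other end, 3 members with scores between 50.2 and 59.16 in both lists had the lowest mean percentiles, 3.96 to 12.2, and none of these 3, nearest to TMEM184C, ADGRL3 and CAMK1G, had RCGTG in its central 200 bp.

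The limit of 2 kb divided neighbouring cases. The members nearest to it lay 2420 bp from a start of ADGRF4 (scores 54.15 and 88.39), 2490 bp from NECTIN4 (95.67 and 147.69) and 2531 bp from DEPP1 (403.97 and 587.02). Those just excluded lay 1900 bp from CSTB (209.0 and 480.82), 1823 bp from TNFSF14 (87.66 and 165.8) and 1775 bp from ADGRF1 (65.73 and 109.24).

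Although kept for their distance from coding starts, 107 members had their middle inside a protein-coding gene. The median distance to the nearest protein-coding start was 35848 bp, and 37 members (15.5%, 95% exact binomial interval 11.2 to 20.8%) were within 10 kb of one, 144 within 50 kb and 179 (75.2%) within 100 kb. Intervals for shares cover counting error only, since regions of a line come from the same pair of libraries. The farthest, chr4:180117314-180118541, was 1753723 bp from the start of AGA. About as many were upstream of their nearest start (113, 47.5%) as downstream, and the 238 regions had 230 different nearest genes. By their middle, 99 regions (41.6%, interval 35.3 to 48.1%) were in an intron of a protein-coding gene, 85 (35.7%) were intergenic, 37 were in introns and 9 in exons of other genes, and 8 were in exons of protein-coding genes. The median distance was 22712 bp for those in introns of protein-coding genes and 44815 bp for intergenic ones. Distal regions of T47D alone were intronic in 32.9%, those of A549 in 40.4% and those of HCT-116 in 40.0%.

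**Figure D2:**
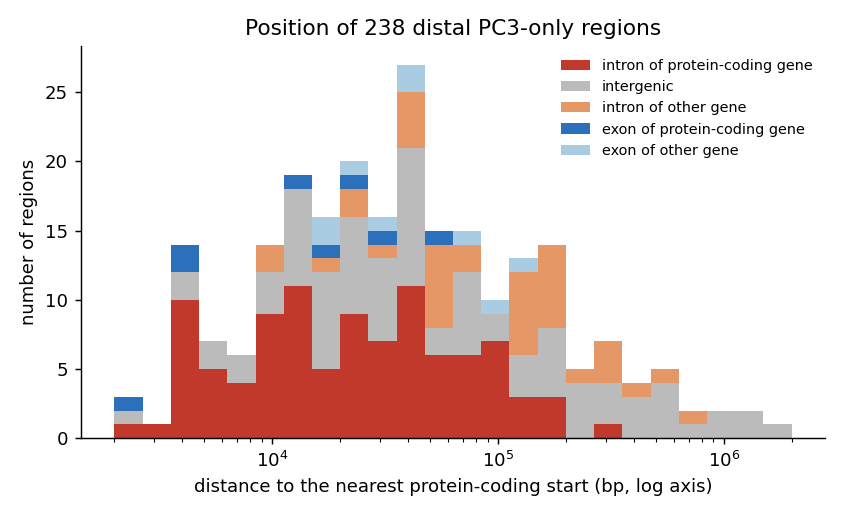
Number of the 238 distal PC3-only regions (y axis) by distance from the nearest protein-coding start (x axis, bp, log axis), with colours for the annotation at the middle of the region. Regions in introns of protein-coding genes (red, median 22712 bp) lie nearer than intergenic ones (grey, median 44815 bp), and the farthest region lies at 1753723 bp.

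The term distal holds for protein-coding transcripts only. A start of any biotype, including non-coding transcripts of coding genes, lay within 2 kb of 60 members (25.2%, interval 19.8 to 31.2%), compared with 24.0% of the distal regions of T47D, 19.4% of A549 and 30.0% of HCT-116. The TUBGCP2 region, for example, was 130 bp from such a start of that gene, and the region nearest to DEPP1 was 35 bp from one of RASSF4. A ratio of observed to expected CpG above 0.6, as in CpG islands, was found in 12 members, and the median GC content was 46.3% (31.5 to 65.3%).

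The members lay on every main chromosome except Y, and whether they were grouped more than randomly placed regions was not tested. With 0.0769 members per Mb over the main chromosomes, the density was highest on chromosomes 19 (0.152 per Mb, 9 regions), 11 (0.148, 20 regions) and 10 (0.133, 18 regions). Chromosome Y held 0 members and also 0 of the other PC3 sites. Of the other chromosomes, the lowest densities were on 18 (0.0128, 1 region) and 9 (0.0142, 2 regions). Chromosome 10 held 7.56% of the members and 4.64% of the other PC3 sites, chromosome X 4.20% and 1.64%, and chromosome 19 3.78% and 7.24%. Differences of similar size were found on chromosomes 4 (6.30% and 3.28%), 11 (8.40% and 5.46%) and 17 (2.52% and 6.15%). Copy number was not measured in these files, and its part in these counts was not tested. A single run of 3 members, each within 100 kb of the next, was found at chr2:234074124-234157304. It comprised a region in an intron of INPP5D, an inositol phosphatase gene, and a pair in introns of ATG16L1, an autophagy gene, with scores of 54.56 to 114.83 in replicate 1 and 169.85 to 207.33 in replicate 2. There were 7 further groups of 2, nearest to GPR153, CALML3 and ASB13, ADGRL3, TLL1, PPARD and FANCE, EZH2 (a histone methyltransferase) and MYC. The MYC pair overlapped the non-coding gene PVT1 and lay 71418 and 113237 bp downstream of the MYC start. Their scores were 87.98 and 92.57 in replicate 1 and 149.96 and 81.54 in replicate 2. At the farther member A549 replicate 2 and HCT-116 replicate 2 had peaks too. Another PC3 site of any kind lay within 100 kb of 43 members (18.1%).

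That a region had a site in PC3 alone did not mean that no other library had a peak there, because a site needed both replicates. Peaks of single libraries of other lines overlapped 54 members (22.7%, interval 17.5 to 28.5%), of 1 other line at 41, of 2 at 12 and of all 3 at 1, while 184 members met none. Most of these peaks came from HCT-116 replicate 2 (26 members) and A549 replicate 2 (21), followed by T47D replicate 2 (11), A549 replicate 3 (5), T47D replicate 1 (3) and HCT-116 replicate 3 (2). HCT-116 replicate 2 had the longest list of all, with 3788 peaks. The region that met peaks of all 3 other lines was chr11:59317560-59319201 (scores 81.35 and 98.74), and those nearest to ATL1 and ZNF469 met peaks of 2. For comparison, a peak of another line overlapped 13.8% of the distal regions of T47D, 30.6% of A549 and 36.4% of HCT-116. The median of the mean score percentile was 60.3 in members with such a peak and 58.8 in those without.

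The HIF core sequence was concentrated at the middle of the members. RCGTG was present on either strand in the central 200 bp, taken around the middle of the overlap of the replicate peaks, in 171 regions (71.8%, interval 65.7 to 77.5%), compared with 17.9% of equally long windows that lay 5 kb to the left and right and 16.5% of windows placed every 20 kb along the genome. ACGTG accounted for most of this, with 59.7% of the members (interval 53.1 to 66.0%) and 7.98% of the flanks. GCGTG was present in 18.9% of the members and 11.3% of the flanks, and 35 members had 2 or more copies of RCGTG. In bins of 100 bp, RCGTG was found in 45.0% and 34.9% of the members on either side of the middle, and in 7.56 to 21.4% in the other bins out to 1 kb. No RCGTG occurred anywhere in 12 members.

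**Figure D3:**
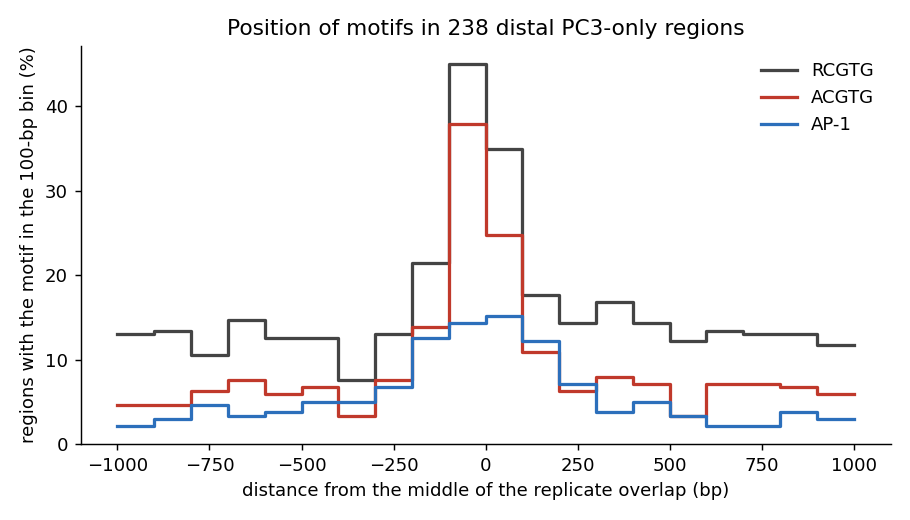
Share of the 238 members (y axis, %) with a motif in each 100-bp bin by distance from the middle of the replicate overlap (x axis, bp), for RCGTG, ACGTG and AP-1. RCGTG reaches 45.0% in the bin before the middle, and AP-1 lies between 12.2 and 15.1% within 200 bp of the middle and between 2.10 and 7.14% farther out.

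The members with the most copies of RCGTG in their central 200 bp did not have the highest scores. A region nearest to CD7, chr17:80255339-80256850, held 6 copies, all GCGTG, and scored 69.93 and 90.42. The region at chr7:102920235-102921618, in an exon of the pseudogene DPY19L2P2, held 5 copies and had an observed to expected CpG ratio of 0.795. Next were 4 members with 4 copies each, of which the highest by mean percentile, chr12:66024075-66026490, held 4 copies of ACGTG and lay 191750 bp upstream of HMGA2, which encodes an architectural chromatin protein and also had a PC3 site at its own start. The share with RCGTG was 72.9% in the 59 members with the highest mean percentiles and 71.2% in the 59 with the lowest.

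AP-1 motifs were also more frequent at the middle of the members than farther out. TGANTCA was present in the central 200 bp of 60 members (25.2%, interval 19.8 to 31.2%), in 7.35% of flanks and in 6.24% of windows along the genome. It was present in 24.0% of members with RCGTG (41 of 171, interval 17.8 to 31.1%) and in 28.4% of those without (19 of 67, interval 18.01 to 40.7%), and the intervals overlapped. In the 41 members with both, the nearest pair lay a median of 46 bp apart. By score, AP-1 was present in 8 of the 59 highest members (13.6%, interval 6.04 to 24.98%) and in 21 of the 59 lowest (35.6%, interval 23.6 to 49.1%). At least 1 of RCGTG and AP-1 was present in 190 members (79.8%).

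Of the other motifs, GGAATG, the core bound by TEAD proteins, was present in 21.0% of the members and 12.4% of the flanks. CACGTG, the E-box of MYC and other bHLH proteins, which contains ACGTG, was present in 5.04% and 2.10%, and TGTGGTT of RUNX proteins in 4.62% and 2.73%. GATAAG, bound by GATA factors, occurred in 3.78% of the members and 7.56% of the flanks. TGTTTAC of forkhead (FOX) proteins was present in 4.20% and 2.31%, and TNGCGTG, the AHR response element, which contains GCGTG, in 2.94% and 2.31%. The ETS motif CCGGAAGT was found in 1 member. The motif TGACGTCA, bound by CREB and ATF proteins, was found in 0 of 238, which allows a share of up to 1.54% (upper limit of the exact interval).

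Distal regions of the other lines are set beside the members here without a test, and the test over libraries follows. RCGTG was present in 50.7% of the distal regions of T47D, 68.1% of those of A549 and 73.6% of those of HCT-116, the last being above the 71.8% of the members. AP-1 was present in 6.38% of the distal regions of T47D, which was no more than in their flanks (6.81%), in 30.1% of those of A549 and in 31.4% of those of HCT-116. ACGTG was present in 33.3% of the T47D regions, 53.4% of A549 and 45.4% of HCT-116, and GCGTG in 24.1%, 24.6% and 41.4%. The 313 distal PC3 sites shared with another line had RCGTG in 79.6%, ACGTG in 65.2%, GCGTG in 33.5% and AP-1 in 28.4%, and the 58 regions with a site of PC3 alone near a coding start had RCGTG in 65.5% and AP-1 in 24.1%.

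**Figure D4:**
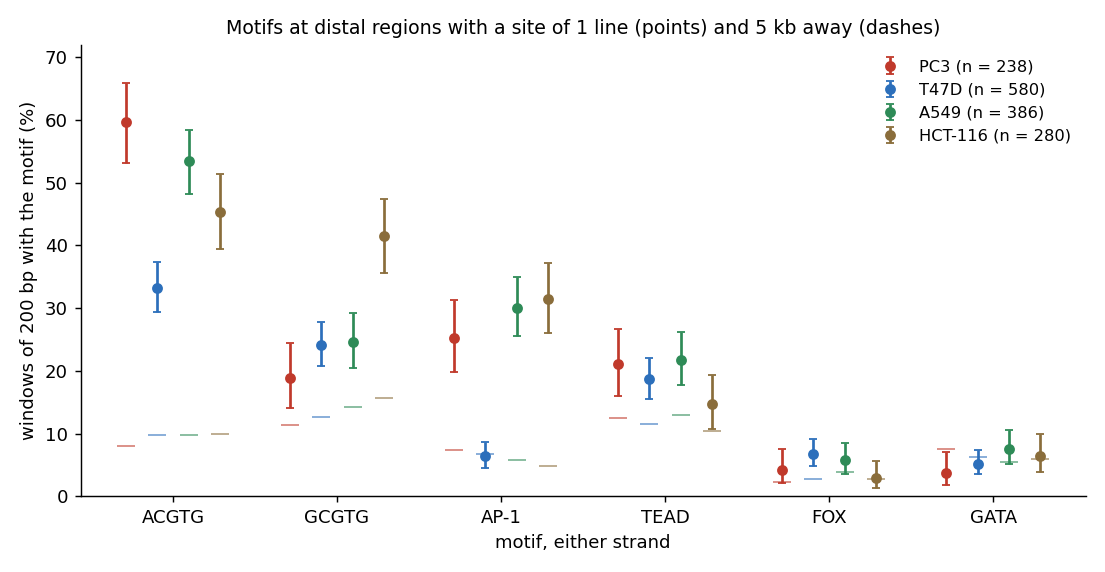
Share of central 200-bp windows with a motif (y axis, %) for 6 motifs (x axis) at distal regions with a site of a single line, with points for the regions, bars for 95% exact binomial intervals and dashes for windows 5 kb away. In PC3 (red) ACGTG reaches 59.7% and AP-1 25.2%, while in T47D (blue) AP-1 is at 6.38%, beside 6.81% in the flanks.

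Whether PC3 libraries differed from the others was tested over libraries, using in each the distal peaks that met no peak of either replicate of another line. A peak in the other replicate of the same line was not required, so these peaks were not confined to the members. An exact two-sided permutation test set 2 libraries against 6 for 14 measures. It counted the replicates of a line as separate units. With PC3 as 1 line of 4, it cannot decide whether PC3 differs as a line. Only 28 divisions exist, so the smallest possible p is 0.0357, and none of the 14 measures had p under 0.05 before or after Benjamini-Hochberg adjustment. RCGTG was present in the central 200 bp of 63.7% of the 223 such peaks of PC3 replicate 1 and 50% of the 966 of replicate 2. In the other lines it ranged from 45.8% in T47D replicate 1 to 68.9% in HCT-116 replicate 3, and the PC3 libraries lay inside that range. The difference of means was 0.44 percentage points (exact permutation test, p = 0.964, adjusted p = 0.964).

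AP-1 was present in 21.1% and 31.6% of these peaks in PC3 replicates 1 and 2, in 5.56% and 5.88% in T47D replicates 1 and 2, in 26.2% and 25.3% in A549 replicates 2 and 3, and in 26.7% and 24.7% in HCT-116 replicates 2 and 3. The PC3 replicates lay on either side of A549 and HCT-116, and both were above T47D. The mean of PC3 was 7.28 percentage points above that of the other 6 libraries (exact permutation test, p = 0.393, adjusted p = 0.550), and without PC3 replicate 2 the difference was -0.21. The smallest p-values were those of GCGTG and GC content. GCGTG was present in 16.6% and 16.8% of the PC3 peaks and in 21.8 to 41.6% elsewhere, and the mean GC content was 47.6% and 47.7% against 48.2 to 56.2%. Neither pair of groups overlapped, and both measures had p = 0.0714 (exact permutation test, adjusted p = 0.375). In both measures the HCT-116 libraries stood farther from the remaining libraries than PC3 did, on the high side. Their replicates 2 and 3 had GCGTG in 36.0% and 41.6% and a GC content of 56.2% and 55.7%. For ACGTG, the PC3 libraries had 52.9% and 39.1% and the others 30.2 to 50% (exact permutation test, p = 0.250, adjusted p = 0.389).

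**Figure D5:**
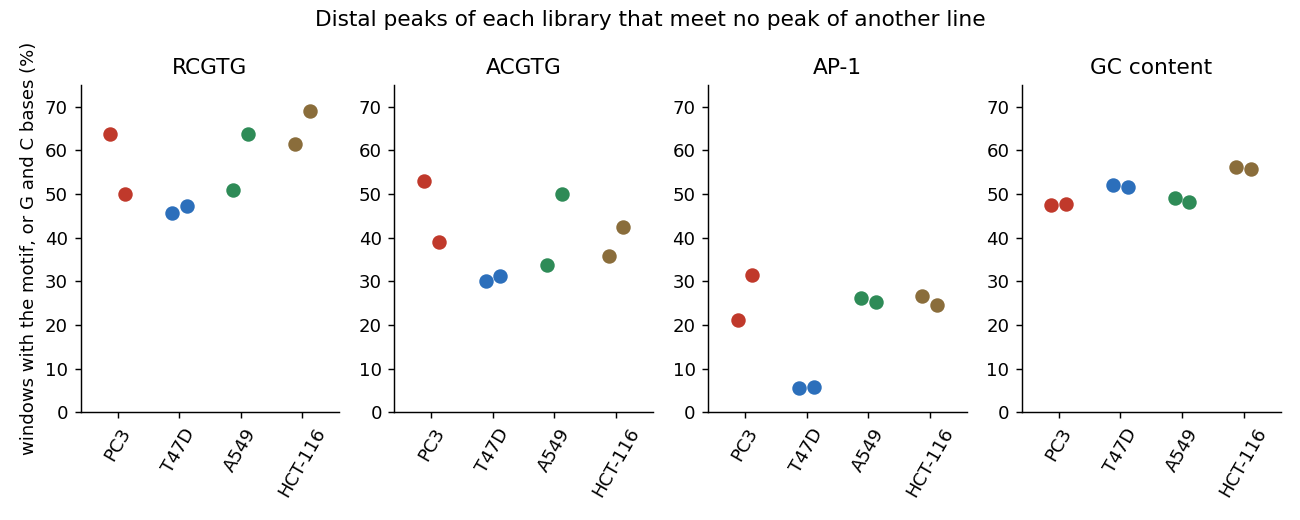
Share of windows with a motif, or of G and C bases (y axis, %), in the central 200 bp of distal peaks that met no peak of another line, with each point a library and the lower-numbered replicate of each line on the left. In T47D both AP-1 values lie under 6% and in the other lines between 21.1 and 31.6%, and for GC content both PC3 libraries lie below the others, at 47.6% and 47.7%.

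The nearest protein-coding gene had a PC3 site within 2 kb of a start at 6 of 238 members (2.52%, interval 0.931 to 5.41%), while 2.36% of all 19794 protein-coding genes had such a site. The share moved with the lists: it was 12.3% without PC3 replicate 1, with 6.2% of all genes bound, and 0.806% in the higher-scoring 50% of each list, with 1.2% bound. Among the nearest genes of the 6 members were RLF, KAT6B, HMGA2, MED15 and CALB1. Of the other lines, T47D had its own sites at the nearest gene's start at 16.2% of its distal regions, with 7.42% of all genes bound, A549 at 7.77% with 1.87%, and HCT-116 at 12.1% with 6.48%.

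The 7 lists of genes were examined for members within 100 kb of a start, a distance at which 528 of all 19794 protein-coding genes (2.67%) had one. Of 45 canonical HIF target genes 4 did, namely HK2 (hexokinase 2, 82112 bp), PFKL (phosphofructokinase of liver type, 91041 bp), NDRG1 (33467 bp) and P4HA2 (a collagen prolyl hydroxylase, 11252 bp). All 4 had a PC3 site at their own start as well, as did 37 of the 45, against 2.36% of all genes. The member near HK2, chr2:75144409-75145751, was nearest to POLE4 and scored 93.75 and 102.39. That near PFKL, chr21:45626454-45628895, had scores of 90.44 and 275.32 and no RCGTG in its central 200 bp. The member near NDRG1, chr8:134223633-134225439, lay in an intron of another coding gene. It scored 50.56 and 177.18, the former close to the lowest score of that list (50.07). The members near PFKL, NDRG1 and P4HA2 were also nearest to starts of other genes. The P4HA2 region, chr5:131600880-131602041, lay in an intron of that gene, had RCGTG in its centre and scored 94.2 and 148.37. None of the 4 had a peak of another line.

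Genes tied to the prostate had members nearby in 5 of 26 cases, 3 of them through a single region. The kallikrein genes KLK4, KLK2 and KLK3, the last of which encodes prostate-specific antigen, lay 20321, 56073 and 76744 bp from chr19:51434972-51437669, which was nearest to KLK5, scored 66.15 and 230.08 and had RCGTG in its centre. The others were NDRG1, which was also in the list of HIF target genes, and SOX9, a transcription factor, at 23039 bp from chr17:70092799-70094122 (60.4 and 100.9). Beyond 100 kb, a member with both RCGTG and AP-1 motifs in its centre lay 193502 bp from FOXA2 (chr20:22370321-22371708, scores 58.29 and 180.84), and HCT-116 replicate 2 had a peak there. In T47D 2 of the 26 genes had a distal region of that line alone within 100 kb, and in A549 and HCT-116 1 each, where 5.24%, 3.53% and 3.31% of all protein-coding genes did. For the HIF target genes the same counts were 4 in T47D, 6 in A549 and 7 in HCT-116, beside the 4 of PC3.

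In the remaining groups the counts were 1 or 2 genes. Among 33 genes of the extracellular matrix and its proteases they were COL6A1 (47478 bp from chr21:47468697-47470601, scores 152.15 and 593.27) and LOXL1, a lysyl oxidase, whose own intron held chr15:74226286-74227484 (62.84 and 142.6). Among 32 AP-1 and other transcription factor genes, FOSL1, which encodes an AP-1 subunit, lay 81511 bp from chr11:65584775-65586348 (162.1 and 503.91) and MYC 71418 bp from the nearer member of the pair in PVT1. MYH9, the heavy chain of non-muscle myosin, was the only gene of 31 for adhesion and the cytoskeleton, 28941 bp from a member with scores of 125.57 and 206.56. PDGFA, a platelet-derived growth factor, was the only one of 32 for growth factor signalling, 81636 bp from chr7:475233-476509 (69.98 and 281.44), where HCT-116 replicate 2 and T47D replicate 2 had peaks too. Of 13 AHR target genes, AHRR, the repressor of AHR, lay 57586 bp from chr5:263164-264243 (63.26 and 92.44). T47D, A549 and HCT-116 had 6, 3 and 4 of the adhesion genes and 3, 6 and 5 of the growth factor genes near distal regions of their own, beside 1 gene of each list in PC3. Of all protein-coding genes, 5.24%, 3.53% and 3.31% lay near such a region in those lines, and 2.67% in PC3. Each gene was counted, also where several lay near the same region. For the matrix genes the counts were 0, 2 and 1, for the transcription factor genes 4, 1 and 3, and for the AHR targets 3, 1 and 3. The share of genes with a PC3 member nearby was 19.2% in the prostate list and 8.89% or less in each other group. In the prostate list KLK2, KLK3 and KLK4 were counted through a single region, and NDRG1 was also counted among the HIF target genes.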

How the data were processed

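According to the submitters' processing notes, the authors used Trim Galore 0.3.3, BWA 0.7.5a-r405, SAMtools 0.1.19, Picard 1.106, bedtools 2.17.0 and MACS, with GRCh37 (hg19). The deposited files are 8 MACS peak lists, 1 per library, in which the score of each peak, as the authors left it, has no stated unit. The study also required peaks of a second caller, which cannot be seen in the lists. The lists hold no reads, so the depth is unknown.

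Peaks on the 24 main chromosomes were merged by 1 bp overlap. Starts were those of protein-coding transcripts of protein-coding genes in GENCODE release 44 lifted to GRCh37, whose primary assembly gave the sequences. Motifs (12, both strands) were counted in the central 200 bp. Libraries were compared by exact permutation tests with Benjamini-Hochberg adjustment over 14 measures. The steps were tested on simulated peak lists. Python was 3.11.15, with pysam 0.24.0 for sequences, SciPy 1.17.1 for intervals, NumPy 2.4.6, and Matplotlib 3.10.9 for figures.

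The members, gene lists and tests were chosen with earlier results of these data known. Regions were named by fixed rules: the 12 highest and 3 lowest by mean score percentile, up to 3 nearest to genes of each list, those closest to the 2 kb limit, runs of 3 or more, and those with most RCGTG or most lines' peaks. Regions with AP-1 motifs, pairs, the 6 with a bound nearest gene and the farthest and widest regions were added after their values were seen. The alternatives were other overlaps, distances, starts, windows, stricter peaks, peaks at distal regions with a site of a single line, a replicate block and each library left out. The share of repeat-masked bases could not be had, because the genome does not mark them, and 2 gene symbols of the lists were not in the annotation. The name of a gene and the sequences at a pair of regions are not reported here.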

Additional observations from a re-analysis of the deposited data

How the results depend on the processing

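The labels do not say that a replicate number marks a shared batch, and PC3 shares number 1 with T47D and number 2 with every line, too few pairs to check it. With a replicate block, chosen after seeing the data, in which PC3 was set against the libraries of the same number, the difference was 7.31 percentage points for RCGTG and 13.8 for AP-1 (exact permutation test, adjusted p = 0.875 and 0.5), and 0 of the 12 other measures passed. Only 8 divisions exist there, so no p can fall under 0.125. Restricting each list to its higher-scoring 50% left 124 members, of which 0.806% had a nearest gene with a PC3 site at its start. That share was 9.73% with a distance of 500 bp and 9.38% with 1 start per protein-coding gene (an alternative chosen after seeing the data), since members within 2 kb of a start then count as that gene's own site. RCGTG was present in 65.5% of windows at the middle of the merged region, 84.0% of central 400 bp and 95.0% of whole regions, and AP-1 in 46.6% of central 400 bp and 70.6% of whole regions, which are longer. Leaving out each library gave 212 to 1198 members, RCGTG in 50.8 to 72.4%, AP-1 in 22.6 to 32.3% and a bound nearest gene at 2.54 to 12.3%, all the far values coming without PC3 replicate 1 except the fewest members (without HCT-116 replicate 3), the least AP-1 (without PC3 replicate 2), the most RCGTG (without A549 replicate 3) and the smallest share of bound genes (without HCT-116 replicate 2). Intronic shares stayed within the interval of the main value. Between libraries, the difference in RCGTG was -0.65 percentage points with 400 bp and -0.17 with a distance of 10 kb, and -6.46 to 7.10 with a library left out. The difference in AP-1 was 15.4 with 400 bp (exact permutation test, p = 0.0714, adjusted p = 0.25), 7.60 with a distance of 10 kb, and -0.21 to 12.5 with a library left out. With only the peaks at distal regions with a site of a single line, the differences were 5.36 for RCGTG and 3.68 for AP-1. In the higher-scoring 50% of each list they were 3.50 and 2.60. No measure passed the test after adjustment in any setting. With a PC3 library left out, 7 divisions remain and no p can fall under 0.143.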
